A study of Mus musculus with 6 samples.

Results

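The 10 transcription factors described here are known from work on injured peripheral axons, and their mRNAs were measured in RNA that co-precipitated with the RNA-binding protein LARP1 from mouse dorsal root ganglia (DRG). They are Atf3, Jun, Junb, Jund, Fos, Sox11, Klf6, Klf7, Stat3 and Smad1, chosen by their Ensembl gene identifiers, and all 10 were among the 16976 identifiers of the deposited count table. The DRG hold the cell bodies of sensory neurons beside the spinal cord, with their glia, and the sciatic nerve carries many of their axons. The injured group was DRG of wild-type mice after sciatic nerve injury, and the uninjured group was DRG of wild-type mice without it, with 3 libraries labelled as replicates in each. LARP1 was pulled down with an antibody from tissue lysate, and the RNA recovered with it was sequenced as amplified nanopore cDNA. The labels used here give no strain, age, number of pooled ganglia or time after injury.

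When a peripheral axon is cut, its cell body is known to switch on a set of transcription factors. The stress kinase JNK acts on Jun, gp130 cytokines act on Stat3, and bone morphogenetic proteins act on Smad1, while Atf3, Sox11 and several Kruppel-like factors are induced mainly as transcripts. Atf3 is widely used in rodents as a marker of sensory neurons with a damaged axon. LARP1 is known for binding mRNAs that begin with a cytosine followed by a run of pyrimidines, called the terminal oligopyrimidine tract, such as those of ribosomal proteins. The comparison of injured with uninjured DRG asks how much of each of these mRNAs came down with LARP1 after nerve injury.

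The injured libraries held 211337 to 211879 counts and the uninjured libraries 116186 to 116608. Libraries sharing a label agreed almost to counting noise, with a variance 1.12 times that noise in the injured group and 1.16 times in the uninjured group over all genes with at least 15 counts there. For the 10 factors this variance was 0.812 times counting noise in the injured group, and for the 8 with a count in the uninjured group it was 0.939 times there. The libraries of a group were therefore summed and counted as 1 sample, so single genes are given without p-values. The intervals are 95% exact intervals that cover only the counting error of reads. Amplified reads without molecular identifiers are not independent molecules, so the intervals may be too narrow for counts of molecules. Variation between samples is not covered. Injury and any batch shared by a group's libraries cannot be told apart. Levels are CPM, the counts scaled to a library's total, in which 1 count in the summed group equals 1.58 CPM with injury and 2.87 CPM without. A level here combines the amount of an mRNA in the tissue with how much of it came down with LARP1. The libraries used here include neither unprecipitated tissue RNA nor a control precipitate. These parts, and any RNA recovered without LARP1, cannot be told apart. Fewer cells of a type and less RNA per cell cannot be told apart either. The DRG label was not checked against cell type markers, because the table's other identifiers were not paired with gene symbols here.

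The RefSeq sequence upstream of the annotated start (GRCm38.p6) was available for all 10 genes. TGACATCA and TTACGTCA are variants of the cAMP response element, a site that dimers of ATF, CREB and Jun proteins can bind. Other variants were not searched, so the remaining factors may hold such a variant as well. The stretches shown are the 130 bases before the start, read on the gene's strand, of the 4 factors that held TGACATCA or TTACGTCA. They are chr1:191183334-191183463 (minus strand) for Atf3, chr4:95052223-95052352 (minus) for Jun, chr12:27342719-27342848 (minus) for Sox11 and chr13:5861359-5861488 (plus) for Klf6. Capitals mark the match.
Atf3: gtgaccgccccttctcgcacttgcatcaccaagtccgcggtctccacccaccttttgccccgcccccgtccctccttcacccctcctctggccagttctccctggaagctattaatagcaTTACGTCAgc
Jun: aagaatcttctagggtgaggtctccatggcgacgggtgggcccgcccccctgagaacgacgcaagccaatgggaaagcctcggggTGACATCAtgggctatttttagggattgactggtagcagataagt
Sox11: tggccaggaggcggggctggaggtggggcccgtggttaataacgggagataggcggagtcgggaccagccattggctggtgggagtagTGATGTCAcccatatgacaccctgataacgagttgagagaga
Klf6: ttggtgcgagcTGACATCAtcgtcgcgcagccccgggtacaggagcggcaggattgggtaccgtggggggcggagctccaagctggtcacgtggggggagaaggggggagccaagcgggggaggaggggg

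Jun, Sox11 and Klf6 shared the 8 letters TGACATCA. The match began 45 bases before the start in Jun, 42 bases before it in Sox11, where it reads TGATGTCA because it lies on the opposite strand, and 119 bases before it in Klf6. Atf3 held TTACGTCA, beginning 10 bases before its start. Over the 250 bases upstream of a start, on either strand, TGACATCA was present in 2.93% of 32851 RefSeq windows and TTACGTCA in 0.447%. The symmetrical element TGACGTCA (1.55% of windows) and the AP-1 site TGACTCA (4.46%) were found upstream of none of the 10. No stretch shown held a match to these 4 motifs other than the marked one. The motifs were chosen after the sequences had been read, and a match describes letters in a window, not a bound site.

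At the start itself, 0 of the 10 genes had a cytosine followed by at least 4 pyrimidines, an arrangement seen in 2.51% of the RefSeq windows. Atf3 and Jund began with a cytosine, and the longest pyrimidine run at the annotated start of any of the 10 was 2 bases, in Atf3. Annotated starts can differ from those used in DRG.

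Summed together, the 10 factors held a larger share of the precipitate's counts after injury. They made up 0.147% of the counts in the injured group (0.137% to 0.156%) and 0.107% in the uninjured group (0.0960% to 0.118%). The share was 0.159%, 0.150% and 0.131% in the 3 injured libraries and 0.112%, 0.104% and 0.104% in the 3 uninjured libraries, so the libraries of the groups did not overlap. The factors contributed unequally. The largest differences, injured minus uninjured, were 174 CPM for Jun, -142 CPM for Jund, 134 CPM for Atf3 and 113 CPM for Sox11. Jund, with 326 injured and 229 uninjured counts, was the 1 factor whose ratio had an interval below 1. Without Jund the other 9 held 0.0952% of the injured counts (0.0877% to 0.103%) and 0.0410% of the uninjured counts (0.0345% to 0.0483%). Jund was left out because of its ratio in these data, so the wider difference follows from that choice and is a description.

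Of the 6499 genes with at least 20 counts over the 6 libraries, 23.4% were more than 2-fold higher and 12.0% more than 2-fold lower in the injured group. Of the 10 factors, 5 were more than 2-fold higher (Atf3, Jun, Sox11, Klf6 and Smad1) and 0 more than 2-fold lower. Atf3 (0), Sox11 (14), Klf6 (3) and Smad1 (5) had fewer than 20 uninjured counts and passed the minimum through the injured group. The count of factors past 2-fold is therefore a description. Fos alone had fewer than 20 counts, and Klf6, with 20, stood at that minimum. The interval of the ratio lay above 1 for 4 factors, a rule that 26.0% of those genes met, and below 1 for Jund, a rule that 17.1% met. It included 1 for the other 5.

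**Figure D1:**
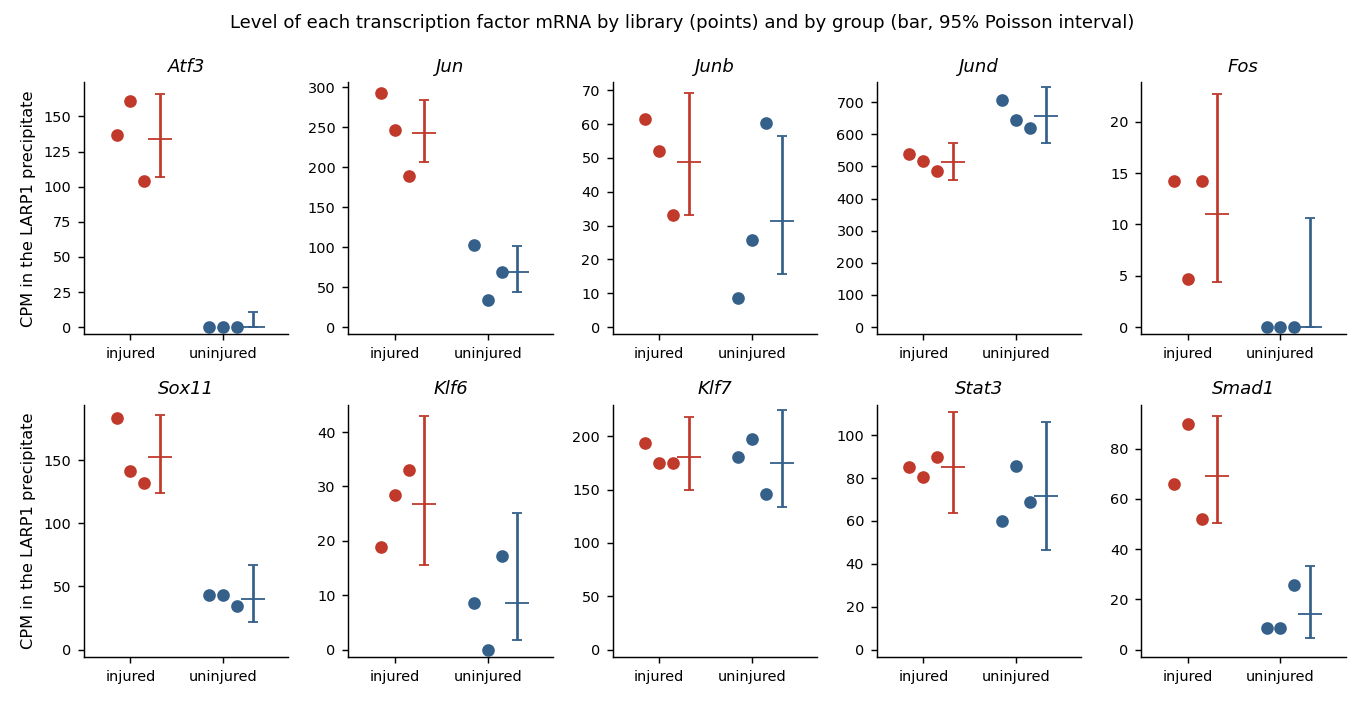
Level of each factor's mRNA in CPM (linear axis, from 0) in the 3 injured and 3 uninjured libraries (points), with the level of the summed group and its 95% exact Poisson interval (bar beside the points). Atf3 and Fos had 0 counts in all uninjured libraries, Jun, Sox11, Smad1 and Klf6 were higher in every injured library, Jund was lower in every injured library, and the groups overlap for Junb, Klf7 and Stat3.

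Atf3 (ENSMUSG00000026628), a basic leucine zipper factor that pairs with Jun proteins and is induced by axon damage, had the highest ratio of injured to uninjured level among the 9 factors with at least 20 counts, though Jun and Jund differed by more CPM. Its counts were 29, 34 and 22 in the injured libraries and 0, 0 and 0 in the uninjured libraries. These are 137, 161 and 104 CPM with injury, and 0 of 349027 counts without, where the exact interval reaches 10.6 CPM and the floor of 3 counts equals 8.60 CPM. The summed level was 134 CPM with injury (107 to 166), and at that level 46.7 counts would have fallen in the uninjured group at its depth. Against the floor of 3 counts over the uninjured group, Atf3 was 15.6-fold higher with injury, a value that depends on that floor. With counting error in both groups, the lower limit of the ratio was 12.4. Only 0.923% of the 6499 genes had a higher ratio by the same measure. Because Atf3 reached 20 counts through the injured group alone, that rank describes where it stood and supports nothing further. Leaving out any single uninjured library made the ratio against the floor 10.4, since the floor then stands for less depth.

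Jun (ENSMUSG00000052684), the AP-1 subunit whose activation by JNK is part of the injury response of sensory neurons, was also higher after injury. Its counts were 62, 52 and 40 in the injured libraries and 12, 4 and 8 in the uninjured libraries, which are 293, 246 and 189 CPM with injury and 103, 34.3 and 68.9 CPM without. Every injured library lay above every uninjured library. The summed levels were 243 CPM (206 to 284) with injury and 68.8 CPM (44.1 to 102) without, a ratio of 3.53 (2.29 to 5.68).

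Of the other members of the Jun family, Jund was lower after injury, and for Junb no difference was resolved. Junb (ENSMUSG00000052837), an AP-1 subunit known as an immediate early gene, had 13, 11 and 7 counts in the injured libraries and 1, 3 and 7 in the uninjured libraries. Its levels overlapped between the groups, since the third uninjured library, at 60.2 CPM, lay above 2 of the 3 injured libraries. The ratio was 1.55 (0.758 to 3.42). It was 1.14 without the first uninjured library and 2.84 without the third, which moved Junb past 2-fold. Jund (ENSMUSG00000071076), the Jun protein present in most resting cells, had 114, 109 and 103 counts in the injured libraries and 82, 75 and 72 in the uninjured libraries. In CPM these are 538, 516 and 487 with injury and 705, 643 and 620 without. Every injured library lay below every uninjured library. Its summed levels were 514 CPM (459 to 573) with injury and 656 CPM (574 to 747) without, a ratio of 0.783 (0.659 to 0.931).

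The makeup of the Jun-family counts differed between the groups, and this comparison does not depend on the scaling of the libraries. Jun made up 30.1% of the 511 Jun, Junb and Jund counts with injury (26.2% to 34.3%) and 9.09% of 264 counts without (5.91% to 13.2%). Jund made up 63.8% with injury (59.5% to 68.0%) and 86.7% without (82.0% to 90.6%). The share of Jund was 60.3%, 63.4% and 68.7% in the injured libraries and 86.3%, 91.5% and 82.8% in the uninjured libraries, with no overlap. Junb held 6.07% (4.16% to 8.50%) with injury and 4.17% (2.10% to 7.33%) without, and these intervals overlap.

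**Figure D2:**
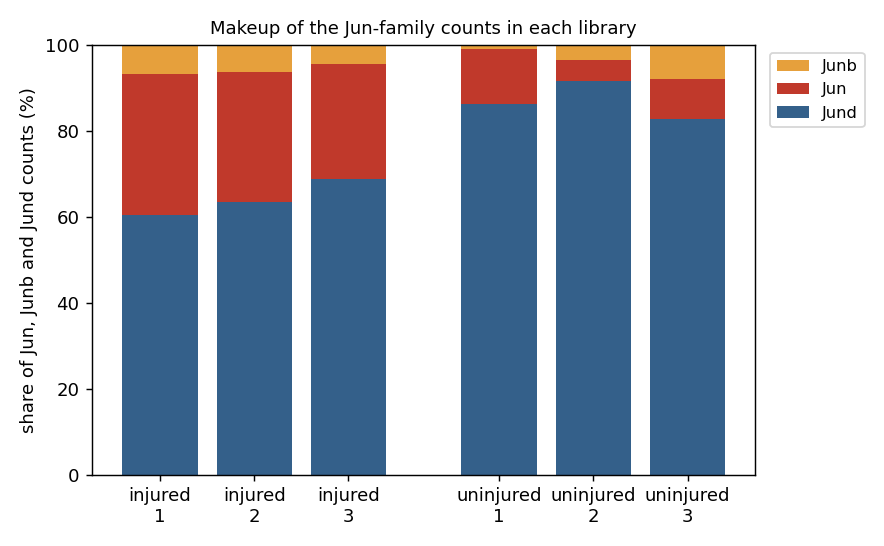
Share (%) of Jun, Junb and Jund in the summed counts of the 3 genes, for each injured and each uninjured library. Jund holds 60.3% to 68.7% in the injured libraries and 82.8% to 91.5% in the uninjured libraries, and Jun takes most of the difference.

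Ratios between related factors say whether their differences were unequal. Of 8 such pairs, the ratio of counts could be compared in 5, and in the other 3 the first gene had no uninjured count. The intervals are not adjusted for the number of pairs. Jun over Jund was 0.472 with injury and 0.105 without, which differ 4.51-fold (2.81 to 7.48). Atf3 over Jun was 0.552 with injury, with no Atf3 count without injury, and the lower limit of that difference was 3.20-fold. Junb over Jund was 0.0951 with injury and 0.0480 without (ratio 1.98, 0.944 to 4.45), and Junb over Jun was 0.201 with injury and 0.458 without (ratio 0.439, 0.184 to 1.10). Neither Junb interval excluded an equal change, nor did it show one. Without the first uninjured library, Junb over Jun had a ratio of 0.242, and without the third it was 0.805. Junb over Jund had a ratio of 1.4 without the first and 3.73 without the third.

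Fos (ENSMUSG00000021250), the partner of Jun proteins in AP-1 and a short-lived immediate early transcript, was close to the limit of these libraries. Its counts were 3, 1 and 3 in the injured libraries and 0 in each uninjured library. The injured level was 11.0 CPM (4.43 to 22.7), and the exact interval of the uninjured level, at 0 counts, reaches 10.6 CPM. At the injured level, 3.85 counts would have fallen in the uninjured group, and the lower limit of the ratio was 0.793. A difference was not detectable at this depth.

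Sox11 (ENSMUSG00000063632), a high-mobility-group factor of developing neurons that promotes axon regrowth in mouse sensory neurons, was higher after injury. Its counts were 39, 30 and 28 in the injured libraries and 5, 5 and 4 in the uninjured libraries, or 184, 142 and 132 CPM with injury and 43.0, 42.9 and 34.4 CPM without. The lowest injured library lay well above the highest uninjured one. The summed levels were 153 CPM (124 to 186) with injury and 40.1 CPM (21.9 to 67.3) without, a ratio of 3.81 (2.17 to 7.23). Of the 6499 genes, 9.56% had a higher ratio than Sox11, and 10.7% had a higher ratio than Jun.

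The Kruppel-like zinc-finger factors Klf6 and Klf7 are both tied to axon growth, and the interval of the ratio included 1 for each. Klf6 (ENSMUSG00000000078) had 4, 6 and 7 counts in the injured libraries and 1, 0 and 2 in the uninjured libraries. The libraries did not overlap in CPM, yet the counts were few. Its ratio of 3.12 had an interval of 0.901 to 16.6, and it was 2.08 without the second uninjured library and 6.24 without the third. Klf7 (ENSMUSG00000025959) had 41, 37 and 37 counts in the injured libraries and 21, 23 and 17 in the uninjured libraries. Those are 194, 175 and 175 CPM with injury and 181, 197 and 146 CPM without, which overlap. The ratio of Klf7 was 1.04 (0.754 to 1.44), an interval that holds no 2-fold difference in either direction. Klf6 over Klf7 differed 3.01-fold between the groups, with an interval of 0.819 to 16.6, so a different response of the pair was not resolved. It was 1.87-fold without the second uninjured library and 6.50-fold without the third.

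Stat3 and Smad1 carry signals from the cell surface to the nucleus, Stat3 from gp130 cytokine receptors and Smad1 from bone morphogenetic protein receptors, and both act once they are phosphorylated. Smad1 (ENSMUSG00000031681) had 14, 19 and 11 counts in the injured libraries and 1, 1 and 3 in the uninjured libraries, or 66.1, 89.9 and 52.0 CPM with injury and 8.60, 8.58 and 25.8 CPM without. The lowest injured library was above the highest uninjured one. The summed levels were 69.3 CPM (50.4 to 93.1) with injury and 14.3 CPM (4.65 to 33.4) without, a ratio of 4.84 (1.92 to 15.6) that rests on 5 uninjured counts. It was 4.03 without the second uninjured library and 8.07 without the third. Stat3 (ENSMUSG00000004040) had 18, 17 and 19 counts in the injured libraries and 7, 10 and 8 in the uninjured libraries. Its levels of 85.0, 80.4 and 89.9 CPM with injury overlapped those of 60.2, 85.8 and 68.9 CPM without. Its ratio was 1.19 (0.727 to 1.99). Stat3 over Smad1 was 1.23 with injury and 5 without, a ratio of 0.245 (0.0684 to 0.733). That ratio was 0.327 without the second uninjured library and 0.144 without the third. Phosphorylation, by which Stat3 and Smad1 are known to be switched on, was not measured here.

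**Figure D3:**
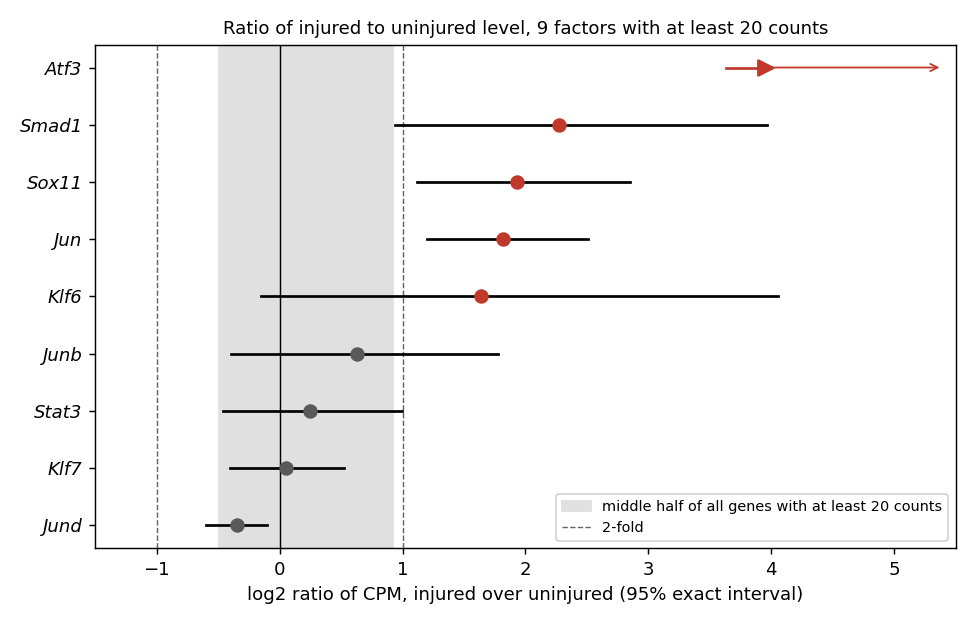
Log2 ratio of CPM, injured over uninjured, with its 95% exact interval for the 9 factors with at least 20 counts. Red points are past 2-fold (dashed lines), and the grey band spans the quartiles of all 6499 genes (-0.49 to 0.92). The arrow marks Atf3, whose ratio of 15.6 is taken against the floor and has no upper limit. Its line begins at its lower limit of 12.4.

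Among the 9 factors with at least 20 counts, 5 had injured libraries that all lay above the uninjured ones, as did 28.5% of the 6499 genes. These were Atf3, Jun, Sox11, Klf6 and Smad1. Jund was the 1 factor with the opposite pattern, which 18.2% of the genes had. The log2 ratio had a median of 1.64 over the 9 factors and 0.15 over the 6499 genes. The 9 include genes that reached 20 counts mainly through the deeper injured libraries, so the count without overlap and the median are descriptions. Klf7, Stat3, Junb and Jund stood within the quartiles of all genes (log2 ratio -0.49 to 0.92). A higher ratio was seen in 54.3%, 46.2%, 33.1% and 70.1% of genes, respectively.

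**Figure D4:**
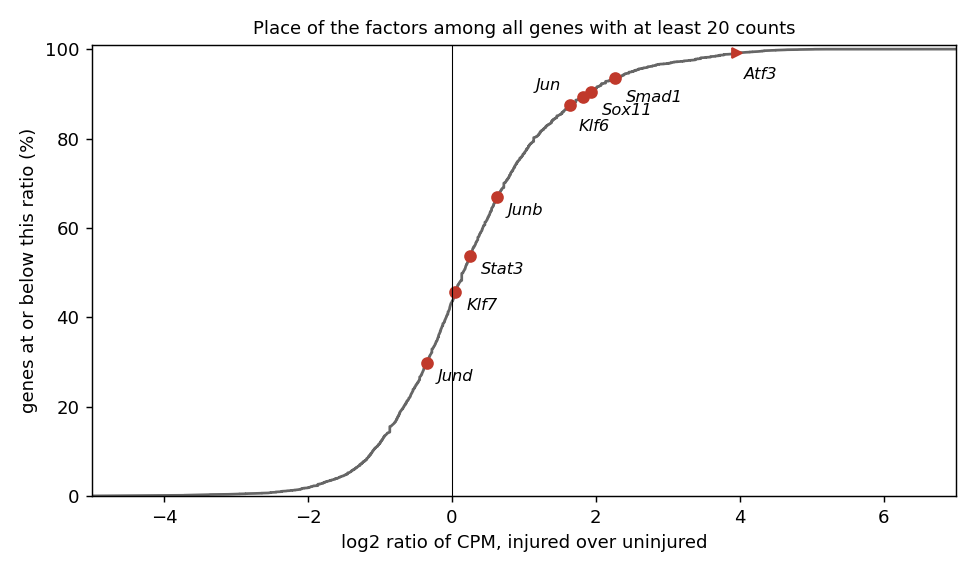
Cumulative share (%) of the 6499 genes with at least 20 counts by log2 ratio of CPM, injured over uninjured (grey line), with the 9 factors marked in red. Atf3, drawn as a triangle because its ratio is taken against the floor, has 0.923% of genes above it. Smad1 has 6.52%, Sox11 9.56%, Jun 10.7% and Klf6 12.6%. Klf7 lies near the middle of the curve with 54.3% of genes above it, and Jund lower, with 70.1%. Atf3, Smad1, Sox11 and Klf6 reached 20 counts only with the injured group, so their places are descriptions.

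In a test of the reads, edgeR's quasi-likelihood test on the 6 libraries with a Benjamini-Hochberg threshold of 0.05, 24.9% of 3158 genes were called higher and 22.1% lower in the injured group. Of the 10 factors, 6 passed that test's filter on low counts. Atf3, Jun and Sox11 were called higher, Jund was called lower, and Klf7 and Stat3 were not called. The 3 called higher passed the filter through the injured libraries, so their calls are descriptions. Klf6, Smad1, Fos and Junb were not tested. The test takes its spread from libraries counted here as 1 sample, so it compares 2 sets of reads and not the conditions. The call of Jund was absent when no filter on low counts was used and with DESeq2. Under those settings Smad1, with 5 uninjured counts, was tested and called higher. So were 948 of 13236 genes with no filter and 800 of 8686 with DESeq2.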

How the data were processed

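The deposited table holds estimated counts per Ensembl gene identifier, all whole numbers and not normalized. Per the labels' protocols, RNA from the anti-LARP1 precipitate was purified on columns and made into nanopore cDNA-PCR libraries. The submitters' processing notes name minimap2, Salmon and GRCm39 (mm39). Tool versions, annotation and filters: not given in the sources used here. Ambiguous reads are divided by estimation in Salmon, which leaves overlapping genes uncertain.

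Groups and replicate numbers came from sample titles, and columns were matched by library name. Counts were summed by group and divided by column totals. Poisson and Clopper-Pearson intervals are exact (95%, SciPy 1.17.1), and 3 counts served as the floor for a group at 0. The read test was edgeR 4.0.16 with TMM and filterByExpr (R 4.3.3); its script was tested on simulated data. Nothing in the labels says that libraries came from separate animals. Alternatives were other scalings, filters, folds, tools (DESeq2 1.42.0, limma 3.58.1), thinning, a replicate block and leaving out each library. The members, lists and tests were chosen with earlier results of these data known. All 10 members were to be named, and other genes only where identifiers could be paired with symbols. The gene table used here pairs none, so lists of related factors and cell type markers were not analysed here. Promoter sequences are from RefSeq (GRCm38.p6), matched by symbol for 10 of 10.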

Additional observations from a re-analysis of the deposited data

How the results depend on the processing

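The ratios of the 10 factors were recomputed under 4 scalings or depths and without each of the 6 libraries. No ratio whose interval excluded 1 crossed to the other side of 1 in these 100 values, and 97 lay within the interval reported above. The other 3 were the ratio of Atf3 against the floor, which became 10.4 without any 1 uninjured library. TMM sizes lowered the log2 ratios by 0.11 and put Klf7 at 0.960, and DESeq2 size factors left Jun at 3.52. Of the 10 factors, 3 in place of 5 were past 2-fold higher when 50 counts were required, since 6 then remained. Of all genes with at least 50 counts, 639 of 3480 were past 2-fold higher. With an interval excluding 1 as the rule, chosen after seeing the data, 4 were higher and 1 (Jund) lower. Over all genes, 2594 of 13236 in place of 1518 of 6499 were past 2-fold higher with no filter, and 2879 in place of 778 lower. Single counts pass there, and a group at 0 is set to the floor of 3 counts. A gene with 1 injured and 0 uninjured counts is then counted as lower, so the 2879 includes genes seen only with injury. With 50 counts required, 639 were higher and 327 lower, with fewer genes tested. At 1.5-fold, 1438 were lower. The share of counts in the 10 factors became 0.158% with injury and 0.123% without when the 10 most abundant genes were left out of the totals. With the replicate block, which the numbers in the titles allow, edgeR called 750 higher and 677 lower genes, against 786 and 699, and the same 4 factors. Libraries with the same number deviated from their group means with correlations of 0.0389, -0.00625 and -0.0506, so the numbers were not taken as pairs. Depth limits Fos, Klf6, Smad1 and Junb most, with 0 to 11 uninjured counts each.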
